A study of Homo sapiens with 4 samples.

Results

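The genes described here were 10 members of the chemokine system: the ligand CXCL12 with its receptors CXCR4 and CXCR7, the CXC ligands IL8, CXCL1, CXCL2, CXCL3, CXCL5 and CXCL16, and the CC ligand CCL20. They were selected by gene symbol from the 16370 genes listed in the count files, and 9 of the 10 were listed. In tests of 1 library against 1 library, CXCL12 fell in both stem-like cultures, whereas CXCL5 fell in that of Hep3B and rose in that of Huh7. IL8, CXCL1 and CCL20 fell in the stem-like culture of Hep3B and were not called in that of Huh7, and CXCR4 had at most 7 counts in any library.

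Chemokines are small secreted proteins that guide migrating cells through receptors coupled to G proteins. CXCL12 signals through CXCR4 and is also bound by CXCR7 (now ACKR3), a scavenging receptor that recruits arrestins, and this axis is known for homing of stem cells and for metastasis. IL8 (now CXCL8), CXCL1, CXCL2, CXCL3 and CXCL5 attract neutrophils through CXCR2 and, like CCL20, are classical targets of NF-kB, while CXCL16 is made as a membrane protein that ADAM10 and ADAM17 release from the cell surface.

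Hep3B and Huh7 are established human hepatoma lines, here the hepatocellular carcinoma (HCC) group, obtained by the authors from the American Type Culture Collection. Hep3B-C and Huh7-C are the hepatic cancer stem cell (HCSC) group, stem-like cultures that were grown from Hep3B and from Huh7. No agent, dose or time was given in the labels, and each line was represented by 1 mRNA library, read on an Illumina Genome Analyzer II, with the starting material labelled as total RNA. Each HCSC line was compared with its own parental line, to ask which genes separate stem-like from parental cells.

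Total gene counts ranged from 2896418 in Hep3B to 4641927 in Hep3B-C, and 3 counts stood at 0.65 to 1.04 CPM (counts per 1000000 total gene counts), the limit taken for a gene with 0 counts. All 9 hepatocyte marker genes examined had counts in every library. In Hep3B-C 3 were called higher and 2 lower, beside 13.2% and 30.4% of all genes, and their sum went from 58060 to 71590 CPM. In Huh7-C 1 was called higher and 4 lower, beside 4.19% and 4.15%, and the sum went from 51530 to 26890 CPM. AHSG, a secreted liver glycoprotein, had 6396 counts in Huh7 and 577 in Huh7-C. The part of such changes in the results on chemokines was not tested. The leukocyte markers PTPRC, CD3E and MS4A1 and the endothelial markers CDH5 and TEK were not listed in any file. The leukocyte list summed to 314.9 CPM in Hep3B and 450.9 in Hep3B-C, and to 186.4 and 191.5 in Huh7 and Huh7-C, nearly all from CD68 and LYZ. The Hep3B pair had a general shift. Its log2 fold-changes had a median of -0.55 over 11433 genes with at least 20 counts, and across genes they had a Spearman correlation of 0.63 with GC content and of -0.43 with gene length. The corresponding values in the Huh7 pair were 0.06 over 11134 genes, -0.06 and 0.31. With TMM factors (a scaling that centres the fold-changes) the median of the Hep3B pair moved to 0.04. The split of all its calls moved from 2043 higher and 4708 lower to 3348 higher and 2799 lower. Its hepatocyte markers then split into 5 higher and 1 lower. Within each pair the DESeq2 size factors were 1 for both libraries, so values with them carry no scaling by library total. Their median in the Hep3B pair was 0.13.

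The ELR chemokines (IL8, CXCL1, CXCL2, CXCL3 and CXCL5, named for a Glu-Leu-Arg motif before their first cysteine) lie together on chromosome 4. IL8 is at chr4:73740506-73743716 and CXCL1 at chr4:73869393-73871242 on the plus strand, and CXCL5 at chr4:73995642-73998779, CXCL3 at chr4:74036589-74038807 and CXCL2 at chr4:74097035-74099293 on the minus strand (GRCh38, GENCODE 29). CXCL12 is at chr10:44370165-44386493 on the minus strand, CXCR4 at chr2:136114349-136118165 on the minus strand, CXCR7 at chr2:236567787-236582358 and CCL20 at chr2:227805739-227817564 on the plus strand, and CXCL16 at chr17:4733526-4739922 on the minus strand. The authors counted on an NCBI build older than GRCh38, so these positions only locate the genes.

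RefSeq promoters (GRCh38.p14) were matched for 8 of the 10 members, and the 250 bases before each start were searched on both strands. The kB core GGAATTTCC, a form of the binding motif of NF-kB, was in the promoters of 5 members and in 0.41% of all 35116 promoters. The windows are shown because the ELR ligands share these letters and yet were not all called alike, and the capitals mark the match.
IL8, chr4:73740458-73740506, plus strand: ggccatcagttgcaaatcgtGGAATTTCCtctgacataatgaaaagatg
CXCL1, chr4:73869295-73869343, plus strand: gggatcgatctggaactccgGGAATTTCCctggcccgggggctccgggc
CXCL2, chr4:74099244-74099292, minus strand: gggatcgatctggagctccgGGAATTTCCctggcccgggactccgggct
CXCL3, chr4:74038739-74038787, minus strand: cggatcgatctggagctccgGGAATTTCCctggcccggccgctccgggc
CXCL5, chr4:73998739-73998787, minus strand: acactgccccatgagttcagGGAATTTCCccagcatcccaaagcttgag

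The match began 91 bases before the RefSeq start in IL8, 78 in CXCL1 and CXCL3, 77 in CXCL2 and 90 in CXCL5. The CXCL2 and CXCL3 windows and the CXCL5 match lie inside the longer GENCODE genes. The broader NF-kB consensus, which overlaps the kB core in CXCL1, CXCL2, CXCL3 and CXCL5, was also in the CCL20 promoter and in 9.96% of all promoters. The AP-1 letters TGACTCA or TGAGTCA were in the IL8 promoter alone among the members and in 4.20% of all promoters. No kB, NF-kB or AP-1 match was found in the windows of CXCL12 and CXCR4, which says only that the letters are not there. The hypoxia response core letters ACGTG or GCGTG were in windows of CXCR4, CXCL5 and CCL20 and in 43.21% of all promoters.

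CXCL1, CXCL2 and CXCL3 are close copies of each other. Their coding sequences of 324 bases (GENCODE 29) were 93.5% identical between CXCL1 and CXCL2, 90.7% between CXCL1 and CXCL3 and 94.4% between CXCL2 and CXCL3, compared with 58.9% to 60.9% between IL8 and any of CXCL1, CXCL2, CXCL3 and CXCL5. Codons 35 to 64 are shown because reads from such stretches can be given to the wrong copy, and the capitals mark bases that differ from CXCL1.
CXCL1: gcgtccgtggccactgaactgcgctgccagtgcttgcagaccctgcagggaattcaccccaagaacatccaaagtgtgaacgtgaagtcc
CXCL2: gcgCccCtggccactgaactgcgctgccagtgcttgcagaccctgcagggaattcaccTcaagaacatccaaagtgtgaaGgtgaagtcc
CXCL3: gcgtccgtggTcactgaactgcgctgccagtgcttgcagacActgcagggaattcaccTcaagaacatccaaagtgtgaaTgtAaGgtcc

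Of the 1062 stretches of 36 bases in the CXCL1 transcript, 130 were also in CXCL2 and 20 in CXCL3, while IL8 shared none with the other 4 ELR members. How the counting treated reads with several matches is not given in the sources used here, so the values of CXCL1, CXCL2 and CXCL3 are uncertain to that extent.

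Of the 9 listed members, 0 rose and 5 fell in Hep3B-C against Hep3B, at a false discovery rate (FDR) of at most 0.01 and a change of at least 2-fold, and the other 4 were not called. Over all 15480 genes of that pair, 13.2% were called higher and 30.4% lower by the same rule. In Huh7-C against Huh7, 1 member rose, 1 fell and 7 were not called, where 4.19% of 14807 genes were called higher and 4.15% lower. The median log2 fold-change was -2.05 in the Hep3B pair over the 8 members with at least 20 counts, beside -0.55 over all such genes. In the Huh7 pair it was -0.94 over 5 members, beside 0.06. The 20 counts were summed over a pair, so IL8 (151 against 0, Hep3B pair) and CXCL12 (992 against 15, Huh7 pair) passed on parental counts. The members were chosen with earlier results of these data known, so these medians are descriptions only. The calls in each pair come from the Audic-Claverie test, which compares 1 library with 1 library and covers counting error only. No call had a replicate check. An assumed biological coefficient of variation of 0.4 was also used in place of counting error alone. The members then called were IL8 and CXCL1 in the Hep3B pair and CXCL12 in the Huh7 pair, all lower. Of all 15480 genes of the Hep3B pair, 62 were then called higher and 169 lower. Of all 14807 genes of the Huh7 pair, 13 were called higher and 12 lower. Fold values and their intervals are ratios of CPM, while log2 fold-changes (HCSC over HCC) have 0.5 added to each count, and their SE is that of Poisson counts.

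**Figure D1:**
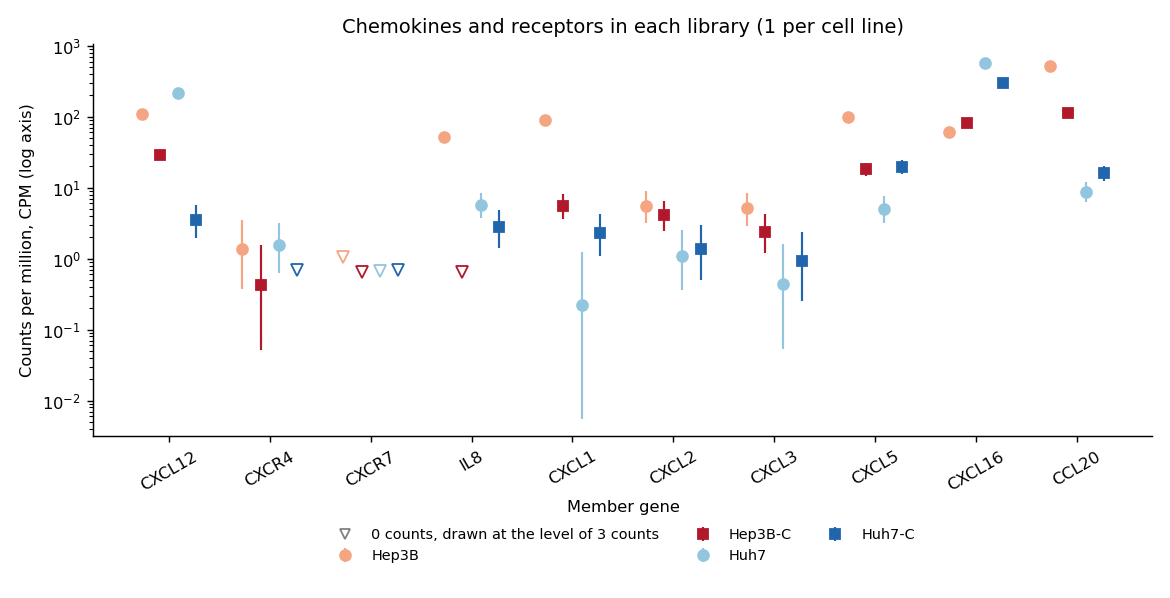
Level of each member in each library, in CPM on a log axis, with exact Poisson 95% intervals as bars and open triangles for 0 counts drawn at the level of 3 counts. CXCL12 ran from 218.6 CPM in Huh7 down to 3.46 in Huh7-C, and CCL20 from 513.4 CPM in Hep3B down to 8.82 in Huh7.

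CXCL12, the ligand of CXCR4, was the only member called in the same direction in both pairs. CXCL12 had 319 counts in Hep3B against 134 in Hep3B-C, and 992 in Huh7 against 15 in Huh7-C, or 110.1, 28.9, 218.6 and 3.46 CPM. Both parental lines stood above both stem-like cultures. In Hep3B-C it was 3.82-fold lower than in Hep3B (95% counting interval 3.11 to 4.70, FDR 3.4e-42), a log2 fold-change of -1.93 (SE 0.15). In the Huh7-C library it was 63.2-fold lower than in Huh7 (38.1 to 113.3; log2 fold-change -5.93, SE 0.37, FDR 9.3e-259). The size of the fall in the Hep3B pair depended on the scaling, at a log2 fold-change of -1.33 with TMM factors and -1.03 once the trends of fold-change with GC content and gene length were taken out, and that of the Huh7 pair was -5.98 and -5.99 under the same settings.

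The order of the lines also differed between the groups. CXCL12 was 1.99-fold higher in Huh7 than in Hep3B (1.75 to 2.26) among the parental lines but 8.34-fold higher in Hep3B-C than in Huh7-C (4.88 to 15.3) among the stem-like cultures. In the Huh7 pair 2 stromal markers moved as well, PDGFRB from 186 to 2 counts and COL3A1 from 0 to 58 counts, and so did the endothelial marker PECAM1 from 17 to 93. Of the 7 fibroblast and stellate markers, 5 were listed, and DCN and ACTA2 were not listed in any file. The summed CPM of the 7 fibroblast and stellate markers was 14.5 in Hep3B against 10.8 in Hep3B-C, and 45.2 in Huh7 against 15.5 in Huh7-C, and that of the 5 endothelial markers was 3.11, 2.80, 3.97 and 21.5 in the same order. The part of these cell types in the CXCL12 result was not tested. In RNA of whole cultures, fewer cells that express a gene and less RNA per cell cannot be told apart.

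The study predicted miRNA targets with several computational methods. It kept pairs of a miRNA that was higher and a gene that was lower in both stem-like cultures. IL8 was among those genes, whereas here it was not called in Huh7-C by the Audic-Claverie test (FDR 0.089). In this way the study linked IL8 to hsa-miR-338-5p alone and CXCL12 to 4 miRNAs. Here the seeds (bases 2 to 8) of these 4 were searched in the 3′ untranslated regions of the listed members. The mature forms with a match in CXCL12 are shown with the seed in capitals, followed by the matched sites with the match in capitals.
hsa-miR-338-5p: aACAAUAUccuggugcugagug
hsa-miR-760: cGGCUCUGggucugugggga
CXCL12 site for hsa-miR-338-5p: tcttgtttggaATATTGTccattgtccaa
CXCL12 first site for hsa-miR-760: gcagtcctgatCAGAGCCgtggtcctttg
CXCL12 second site for hsa-miR-760: gggtccatgggCAGAGCCcaagggaattc

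The miR-338-5p match began at base 803 and the miR-760 matches at bases 945 and 1017 of the CXCL12 3′ untranslated region of 3163 bases. Among 1434 regions within 20% of that length, 30.3% held the miR-338-5p match and 26.8% the miR-760 match, so such matches are common at this length. No match to hsa-miR-378a-3p or hsa-miR-450b-5p was found in CXCL12, and none to any of the 4 seeds in IL8. Only exact seed matches in 1 transcript per gene were searched, so a missing match does not test the study's predictions. CXCR4 and CCL20 each held 1 match to miR-338-5p, where 4.9% and 4.5% of regions of similar length did. A match is a description of letters, and the miRNA levels of these lines were not analysed here.

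The receptors of CXCL12 were at the lower limit of these libraries. CXCR4 had 4 counts in Hep3B against 2 in Hep3B-C, and 7 in Huh7 against 0 in Huh7-C, so no library exceeded 1.54 CPM. The change in the Hep3B pair had a ratio of 0.312 with a counting interval of 0.0282 to 2.18, and its FDR was 0.22. In the Huh7 pair CXCR4 was at least 2.23-fold lower in Huh7-C when its 0 is set to 3 counts, but the FDR of 0.030 missed the threshold. CXCR7 had no row under its symbol or its gene ID in any file. Taken as 0 counts, this allows a level of up to 3 counts, or 1.04 CPM in Hep3B against 0.65 in Hep3B-C, and 0.66 in Huh7 against 0.69 in Huh7-C (exact 95% Poisson limits 1.27, 0.795, 0.813 and 0.851), provided that the gene was among those counted, which is not given in the sources used here.

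IL8, the best-known attractant of neutrophils, was detected in every library but Hep3B-C. It had 151 counts in Hep3B against 0 in Hep3B-C, and 26 in Huh7 against 12 in Huh7-C, or 52.1, 0, 5.73 and 2.77 CPM. With the 0 set to 3 counts, IL8 was at least 80.7-fold lower in Hep3B-C than in Hep3B on raw totals (FDR 2.3e-62), or at least 53.4-fold with TMM factors, and the lower end of the 95% counting interval was 64.8-fold. It was called lower with TMM factors and without the GC and length trends too. In the Huh7 pair it was 2.07-fold lower in Huh7-C (1.01 to 4.50; log2 fold-change -1.02, SE 0.50), and the FDR of 0.089 did not pass.

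CXCL1, which acts on the same receptor as IL8, had 258 counts in Hep3B against 26 in Hep3B-C, and 1 in Huh7 against 10 in Huh7-C. At 89.1 CPM it was high in Hep3B alone, with 0.22 to 5.60 CPM in the other libraries. It was 15.9-fold lower in Hep3B-C than in Hep3B (10.6 to 24.8; log2 fold-change -3.97, SE 0.29, FDR 1.8e-75). The log2 fold-change was -3.37 with TMM factors, -3.20 with the total reads listed by the study and -4.49 with the length trend removed, all called lower. In the Huh7 pair the ratio of Huh7-C to Huh7 was 10.5 with a counting interval of 1.49 to 454.4 and an FDR of 0.030, which was not called.

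CXCL5 moved in opposite directions in the pairs. Its counts were 289 in Hep3B against 84 in Hep3B-C, and 23 in Huh7 against 85 in Huh7-C, or 99.8, 18.1, 5.07 and 19.6 CPM, so both stem-like cultures lay between the parental lines. It fell 5.51-fold in Hep3B-C (4.31 to 7.12; log2 fold-change -2.46, SE 0.18, FDR 3.5e-52) and rose 3.87-fold in Huh7-C (2.42 to 6.43; log2 fold-change 1.93, SE 0.34, FDR 3.6e-09). The ratio of Hep3B to Huh7 was 19.7 (12.9 to 31.6), and that of Hep3B-C to Huh7-C was 0.923 (0.674 to 1.26). Once the trends were taken out, the change in the Hep3B pair was -0.97 and no longer reached 2-fold, while that in the Huh7 pair was 1.98.

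CXCL2 and CXCL3, the closest copies of CXCL1, were low in all libraries and were called in neither pair. CXCL2 had 16 counts in Hep3B against 19 in Hep3B-C, and 5 in Huh7 against 6 in Huh7-C, and CXCL3 had 15, 11, 2 and 4 in the same order. The Hep3B-C to Hep3B ratio of CXCL2 was 0.741 with an interval of 0.361 to 1.54, and that of CXCL3 was 0.458 with an interval of 0.190 to 1.07. The ratio of CXCL1 in the same pair, 0.0629, lay below both intervals. Of the 5 ELR ligands, 3 were called lower in Hep3B-C, beside 30.4% of all genes. In Huh7-C 1 was called higher, beside 4.19% of all genes. Without the GC and length trends the fall of CXCL5 in Hep3B-C did not reach 2-fold.

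**Figure D2:**
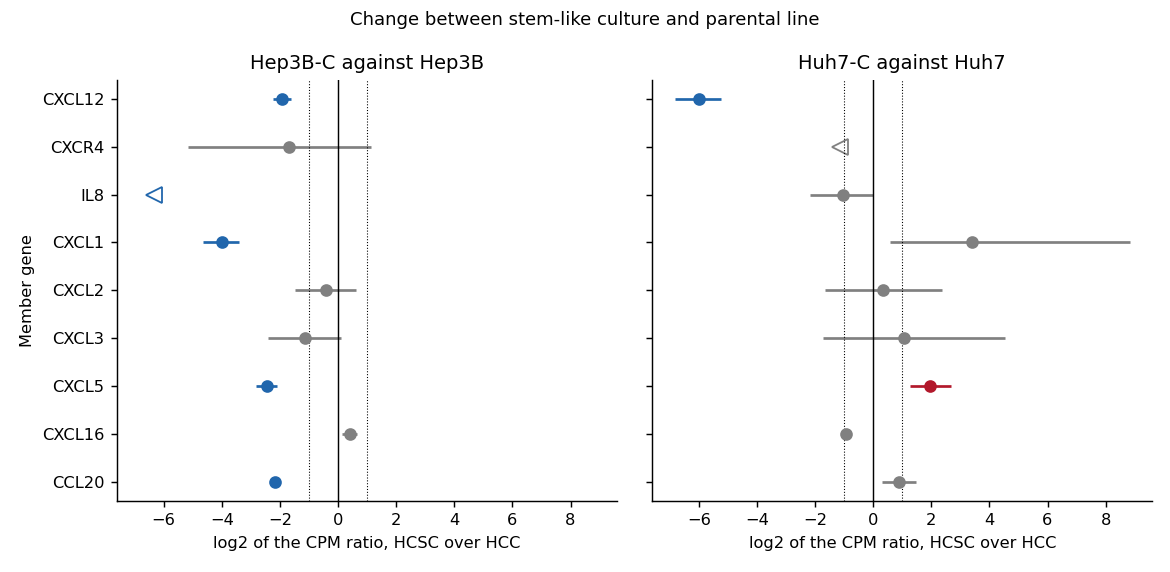
Ratio of HCSC to HCC CPM of the 9 listed members in each pair, on a log2 axis, with 95% counting intervals. Blue marks a fall and red a rise past both thresholds, grey marks no call, dotted lines mark 2-fold, and the open triangles (IL8 in Hep3B-C, CXCR4 in Huh7-C) are bounds with the 0 set to 3 counts. CXCL12 is blue in both panels, and CXCL5 is blue on the left and red on the right.

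CXCL16, the membrane-bound ligand of CXCR6, was the chemokine with the most reads in both Huh7 libraries. It had 179 counts in Hep3B against 379 in Hep3B-C, and 2594 in Huh7 against 1292 in Huh7-C, or 61.8, 81.7, 571.7 and 298.1 CPM. Its change stayed under 2-fold in both pairs, with a ratio of 1.32 in the Hep3B pair (1.10 to 1.59; FDR 0.0040) and 0.522 in the Huh7 pair (0.487 to 0.558; FDR 4.8e-84). The signs were opposite. In the Hep3B pair the sign rests on the scaling, since the log2 fold-change was 0.40 as counted and -0.00 once the trends were taken out. It was 1.08 and called higher with DESeq2 size factors, which apply no scaling by library total here. The Huh7 pair was at -0.94 as counted and at -1.01 with DESeq2 size factors, then called lower. CXCL16 was 9.25-fold higher in Huh7 than in Hep3B (7.95 to 10.8) and 3.65-fold higher in Huh7-C than in Hep3B-C (3.25 to 4.11).

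The 2 proteases that shed CXCL16 were both called lower as counted in the Hep3B pair, beside 30.4% of all genes. In that pair 1 of the 2 was called lower with TMM factors, and 1 without the GC and length trends. ADAM10 had 656 counts in Hep3B against 169 in Hep3B-C, and 248 in Huh7 against 377 in Huh7-C, and fell there (log2 fold-change -2.63, SE 0.12, FDR 5.7e-127) while its value in the Huh7 pair was 0.67 and not called. ADAM17 had 110, 82, 75 and 101 counts and fell in the Hep3B pair by the same rule at -1.10 (SE 0.21, FDR 3.3e-07), with 0.49 in the Huh7 pair. Once the trends were taken out, ADAM10 was at -1.12 and ADAM17 at 0.17 in the Hep3B pair. CXCR6, the receptor of CXCL16, had 4 counts in Hep3B and 0 in Hep3B-C and was not listed in the Huh7 pair.

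CCL20, which attracts CCR6-bearing lymphocytes and dendritic cells, was the member with the highest level per length in both Hep3B libraries. It had 1487 counts in Hep3B against 528 in Hep3B-C, and 40 in Huh7 against 70 in Huh7-C, or 513.4, 113.7, 8.82 and 16.2 CPM. It fell 4.51-fold in Hep3B-C (4.08 to 4.99; log2 fold-change -2.17, SE 0.07, FDR 7.2e-226). Against Huh7, the Huh7-C ratio was 1.83 (1.23 to 2.77; FDR 0.0093), which passed the FDR but not the 2-fold threshold. The FDR was 0.014 with TMM factors, 0.019 with DESeq2 size factors and 0.014 with the total reads listed by the study, so that it then passed neither. Once the trends were taken out, the values were -1.21 in the Hep3B pair and 1.23 in the Huh7 pair, the latter then called higher. CCL20 was 58.2-fold higher in Hep3B than in Huh7 (42.6 to 81.9) and 7.04-fold higher in Hep3B-C than in Huh7-C (5.48 to 9.17).

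CCR6, the receptor of CCL20, had counts in all libraries. It had 77 in Hep3B against 116 in Hep3B-C, and 50 in Huh7 against 49 in Huh7-C, or 26.6, 24.99, 11.02 and 11.3 CPM, with a log2 fold-change of -0.09 (SE 0.21) in the Hep3B pair and 0.04 (SE 0.29) in the Huh7 pair. Neither value was called, and it was at 1.21 in the Hep3B pair, and called higher, without the GC and length trends.

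Levels of different genes were compared as RPKM, counts scaled per kilobase of gene length at the CPM scale. In Hep3B the order was CCL20 at 609.7 RPKM, CXCL1 at 80.8, CXCL5 at 40.6, IL8 at 31.5, CXCL12 at 31.1 and CXCL16 at 26.6, and from CXCL5 to CXCL16 the counting intervals of neighbours overlapped. In Hep3B-C CCL20 at 135.1 RPKM and CXCL16 at 35.1 stood apart, and CXCL12 at 8.15, CXCL5 at 7.36, CXCL1 at 5.08, CXCL2 at 3.40 and CXCL3 at 2.06 overlapped with their neighbours. In Huh7 the first 3 were CXCL16 at 246 RPKM, CXCL12 at 61.7 and CCL20 at 10.5, each apart from the next. In Huh7-C they were CXCL16 at 128 RPKM, CCL20 at 19.2 and CXCL5 at 7.98, again each apart from the next, and CXCL12 at 0.977 was among the 6 lowest, whose neighbours all overlapped. CXCL12 thus held the second place in Huh7 and the seventh in Huh7-C.

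Summed over the members and all other chemokine ligands, the libraries held 1018 CPM in Hep3B against 327 in Hep3B-C, and 825 in Huh7 against 353 in Huh7-C. CCL20 made up 50.4% of these reads in Hep3B (48.6 to 52.2, Wilson 95% interval) and 34.8% in Hep3B-C (32.4 to 37.2), where CXCL16 (379 counts, 22.8 to 27.2%) and CX3CL1 (19.7%) followed. CXCL16 made up 69.3% in Huh7 (67.8 to 70.7) and 84.5% in Huh7-C (82.6 to 86.2). CXCL12 was the second ligand in Huh7 with 26.5% (25.1 to 27.9), and in Huh7-C the second was CXCL5 with 5.6%. These intervals cover counting error only, since reads without molecular identifiers are not independent molecules.

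**Figure D3:**
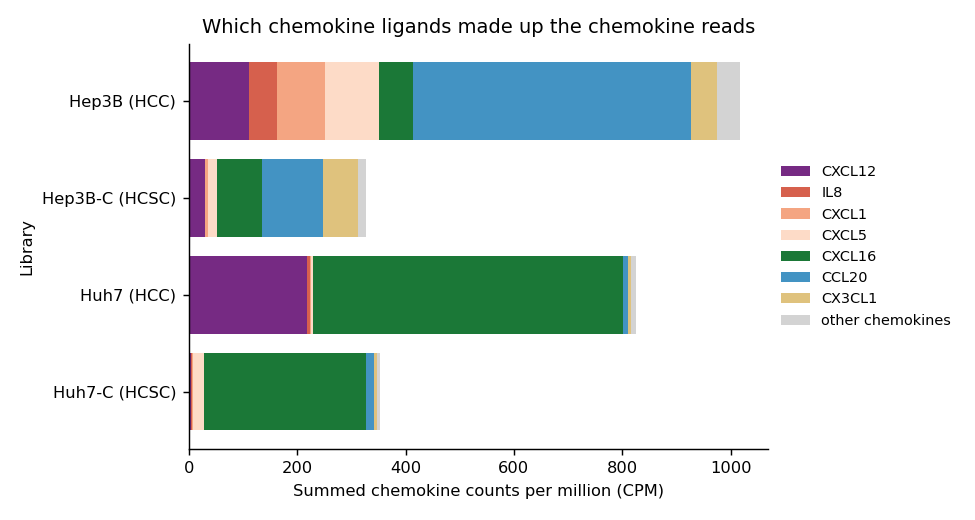
Summed CPM of the chemokine ligands in each library, split by ligand. The bars end at 1018 CPM in Hep3B against 327 in Hep3B-C, and 825 in Huh7 against 353 in Huh7-C, with CCL20 (blue) the widest part in the Hep3B libraries and CXCL16 (green) in the Huh7 libraries.

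Of 40 other chemokine ligands, 16 were listed. In the Hep3B pair 0 of 13 tested rose and 3 fell, beside 13.2% and 30.4% of all genes. In the Huh7 pair none of 12 was called by the Audic-Claverie test, beside 4.19% higher and 4.15% lower over all genes. CXCL10, an interferon-induced ligand of CXCR3, had 46 counts in Hep3B and 6 in Hep3B-C (log2 fold-change -3.52, SE 0.60, FDR 3.1e-13) and was not listed in the Huh7 pair. CCL28, a mucosal chemokine, had 10 counts in Hep3B and 2 in Hep3B-C and was called lower (FDR 0.0033), as was CCL22, which fell from 7 counts to 0 (FDR 0.0018). Both of these calls were lost with TMM factors, at an FDR of 0.030 and 0.011, and with DESeq2 size factors, at 0.039 and 0.014. CX3CL1, a membrane-bound chemokine like CXCL16, had 143 counts in Hep3B against 299 in Hep3B-C, and 28 in Huh7 against 18 in Huh7-C, and was called in neither pair as counted, although its value in the Hep3B pair was 1.06 and called higher with DESeq2 size factors. Of 22 other chemokine receptors, 11 were listed. None of the 9 in the Hep3B pair and 7 in the Huh7 pair was called as counted, beside the same shares of all genes. CCR6 was the only one of them above 10 counts in any library. CCBP2, a scavenger of CC chemokines, reached 10 counts in Huh7, and CCR10 had 6 counts in Hep3B-C.

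Of 17 partners of CXCL12 and CXCR4 (other ligands, proteases, G proteins, receptor kinases, arrestins and regulators), 16 were listed. In the Hep3B pair 3 of 16 rose and 5 fell, beside 13.2% and 30.4% of all genes, and in the Huh7 pair 2 of 15 rose and 1 fell, beside 4.19% and 4.15%. The Hep3B split became 6 higher and 3 lower with TMM factors, beside 3348 higher and 2799 lower of all 15480 genes. Without the GC and length trends it was 2 higher and 2 lower, beside 1739 and 1782 of 15170. The medians over genes with at least 20 counts were -0.56 in the Hep3B pair and 0.32 in the Huh7 pair, beside -0.55 and 0.06 over all genes. DPP4, the protease that inactivates CXCL12 by clipping its amino terminus, had 540 counts in Hep3B against 79 in Hep3B-C, and 99 in Huh7 against 215 in Huh7-C. It fell in the Hep3B pair (log2 fold-change -3.45, SE 0.17, FDR 9.8e-139) and rose in the Huh7 pair (1.18, SE 0.17, FDR 4.0e-11). GNAI1, an inhibitory G protein subunit, was also called both ways, at -1.89 (SE 0.29) and 2.26 (SE 0.26), but its value in the Hep3B pair was -0.22 without the GC and length trends.

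The receptor kinase GRK6 rose in the Hep3B pair by 2.32 on the log2 scale (SE 0.20), from 61 to 491 counts, and had 402 and 555 counts in the Huh7 pair, with no call. ADRBK2, another receptor kinase, fell in the Huh7 pair from 137 to 57 counts (-1.19, SE 0.23) and had 59 and 51 counts in the Hep3B pair. MIF, a cytokine that also binds CXCR4, had 799 counts in Hep3B against 1627 in Hep3B-C, and 1922 in Huh7 against 1126 in Huh7-C, with no call in either pair as counted. Its log2 fold-change in the Hep3B pair was 0.35 as counted, 1.03 and called higher with DESeq2 size factors, and -1.63 and called lower without the GC and length trends. CD74, its surface receptor, had 382 counts in Hep3B and 957 in Hep3B-C, a log2 fold-change of 0.64 that was not called, and was not listed in the Huh7 pair. With TMM factors it was 1.24 and called higher, and without the GC and length trends it was -0.30. HMGB1, which forms a complex with CXCL12, had 903, 938, 572 and 649 counts in the order Hep3B, Hep3B-C, Huh7, Huh7-C and was not called as counted, but its value in the Hep3B pair went from -0.63 to 1.04, then called higher, without the GC and length trends.

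The NF-kB list held 30 genes, from its activating receptors and kinases to its subunits, inhibitors and targets, and 28 were listed. In the Hep3B pair 5 of 28 rose and 10 fell, beside 13.2% and 30.4% of all genes, and in the Huh7 pair 0 of 26 rose and 2 fell, beside 4.19% and 4.15%. The split of the Hep3B pair turned with the scaling. With TMM factors it was 9 higher and 4 lower, beside 3348 higher and 2799 lower of all 15480 genes. Without the GC and length trends it was 1 higher and 4 lower, beside 1739 and 1782 of 15170. The medians were -0.38 and 0.14, beside -0.55 and 0.06 over all genes. The 2 genes called lower in both pairs were IL1R1, the signalling receptor of IL-1, and TNFAIP3, an induced inhibitor of the pathway. IL1R1 had 81 counts in Hep3B against 43 in Hep3B-C, and 766 in Huh7 against 111 in Huh7-C, with log2 fold-changes of -1.59 (SE 0.27) and -2.71 (SE 0.15), although its value in the Hep3B pair was -0.14 without the GC and length trends. TNFAIP3 had 353, 67, 59 and 15 counts in the same order, with -3.07 (SE 0.19) and -1.87 (SE 0.41), and -2.04 and -2.01 without the GC and length trends.

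IL1RAP, the co-receptor of IL1R1, fell in the Hep3B pair to 43 counts from 404 (log2 fold-change -3.90, SE 0.23; -2.04 without the GC and length trends) and had 12 and 28 counts in the Huh7 pair, with no call. IRAK1, the kinase below both, rose in the Hep3B pair from 92 to 1037 counts (2.81, SE 0.16) and had 1150 and 1208 counts in the Huh7 pair. NFKB2, the subunit of the alternative pathway, rose in the Hep3B pair (1.23, SE 0.13; 0.60 without the GC and length trends) and was at 0.84 (SE 0.07) in the Huh7 pair, under 2-fold. RELA, the main activating subunit, had 265, 606, 859 and 989 counts with no call as counted. With TMM factors its rise in the Hep3B pair passed 2-fold and was called higher. NFKBIA, its inhibitor, had 377, 477, 85 and 65 counts with no call. ICAM1, an adhesion molecule and NF-kB target, fell in the Hep3B pair at -1.03 (SE 0.07), or -0.43 and not 2-fold with TMM factors, and was at 0.41 in the Huh7 pair. Genes of the NF-kB list were called in both directions in the Hep3B pair, with a split that turned with the scaling. Of the NF-kB target ligands, IL8, CXCL1, CXCL5 and CCL20 were called lower there, beside 30.4% of all genes. CXCL2 and CXCL3 were not called. The part of NF-kB in these changes was not tested.

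**Figure D4:**
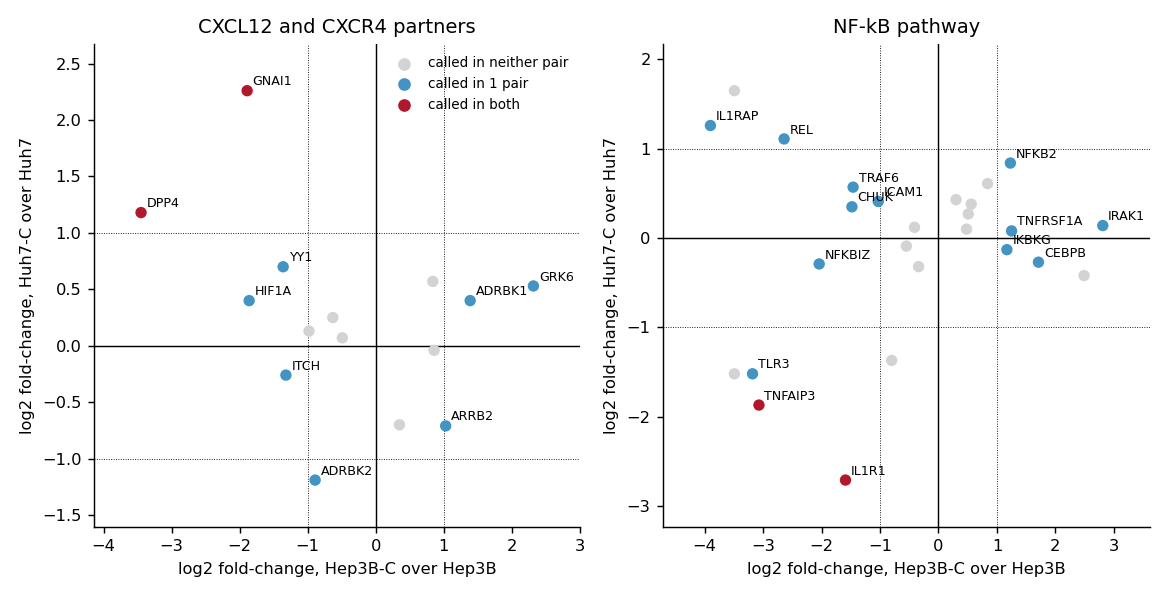
Log2 fold-change of each listed gene in the Hep3B pair (x axis) against the Huh7 pair (y axis), for the partners of CXCL12 and CXCR4 on the left and the NF-kB list on the right, for genes listed in both pairs. Red points (GNAI1, DPP4, TNFAIP3, IL1R1) were called in both pairs, blue points in 1 pair, and dotted lines mark 2-fold.

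Among 9909 genes with at least 50 counts in a library, the genes whose log2(CPM + 1) pattern over the 4 libraries lay nearest to that of CXCL12 were C10orf10 (distance 0.62), C14orf132 (0.96) and ABLIM3 (1.19). C10orf10 had 48 counts in Hep3B against 18 in Hep3B-C, and 118 in Huh7 against 0 in Huh7-C. The nearest to IL8 were C8orf4 (0.53), MALAT1 (0.54) and GAS2L3 (0.69). MALAT1, a long noncoding RNA of the nucleus, had 15014 counts in Hep3B against 664 in Hep3B-C, and 4610 in Huh7 against 2510 in Huh7-C. With 4 libraries, such likeness is a description of 4 values.

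Over both parental lines together, HCSC were compared with HCC by edgeR's quasi-likelihood test with the parental line as a block, the only test here whose spread comes from samples. It left 1 residual degree of freedom, and 9 of 11691 genes, or 0.077%, passed an adjusted p of 0.05. Of the 8 members tested, 0 passed, and 2 had an unadjusted p under 0.05. These were CXCL12 (log2 fold-change -3.69, edgeR p 0.00073, adjusted p 0.31) and IL8 (-3.85, edgeR p 0.0016, adjusted p 0.43). DESeq2 with the same block also called 0 members, with 2 under an unadjusted p of 0.05 and an adjusted p of 0.076 for CXCL12 and 0.54 for IL8. When 1 library was left out, the fit had no block, so differences between the parental lines also entered its values. The edgeR log2 fold-change of CXCL12 then ran from -2.28 (without Huh7-C) to -5.52 (without Hep3B-C). That of IL8 ran from -2.06 (without Hep3B) to -9.65 (without Huh7-C, where the Hep3B-C count of 0 makes its size depend on the prior count). Adjusted p-values for CXCL12 ranged from 0.076 to 1 over the alternatives. For CXCL5, CXCL16 and CCL20, whose signs differed between the pairs, the edgeR log2 fold-changes were -0.15, -0.11 and -0.52, each with an adjusted p of 1.

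**Figure D5:**
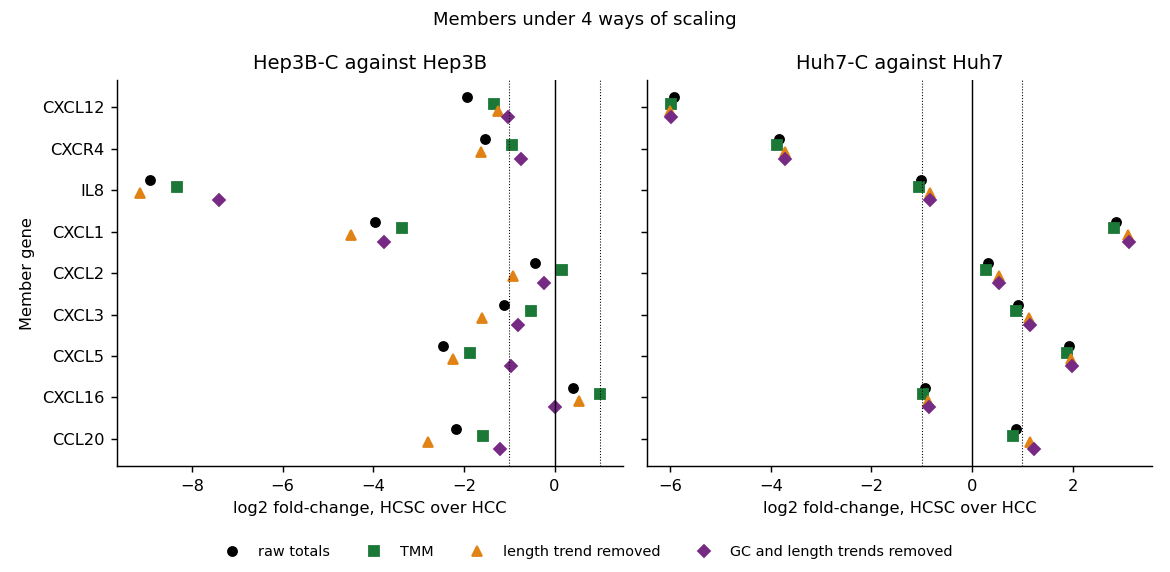
Log2 fold-change of the 9 listed members in each pair under 4 ways of scaling, with raw totals as black circles, TMM as green squares, length trend removed as orange triangles and GC and length trends removed as purple diamonds. In the Hep3B pair CXCL12 moves from -1.93 to -1.03 and CXCL16 from 0.40 to -0.00, and the Huh7 panel moves little (IL8 in Hep3B-C and CXCR4 in Huh7-C have 0 counts, so their points depend on the 0.5 added).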

How the data were processed

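RNA of 4 cell lines was sequenced, with 1 library per line. The authors filtered adapters and low-quality reads, aligned with NextGENe to a human NCBI build older than GRCh38 and deposited raw read counts per gene with the gene length; the version of NextGENe, the gene annotation and the handling of reads with several matches are not given in the sources used here. Genes were joined by gene ID, and a gene absent from the files of a pair was taken as 0 counts.

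CPM and RPKM used the total gene count. Within each pair, HCSC and HCC counts were compared by the Audic-Claverie (Poisson) test with the tail doubled and Benjamini-Hochberg adjustment over all genes of the pair, and called where the FDR did not exceed 0.01 and the change was 2-fold or more, with 0.5 added to each count. SE and intervals cover counting error only. Over both pairs, edgeR 4.0.16 (TMM, filterByExpr, parental line as block) was used, with DESeq2 1.42.0 as an alternative (R 4.3.3, Python 3.11.15, scipy 1.17.1). The scripts were tested on simulated data. GC content came from the GENCODE 29 transcript closest in length, for 99.2% of genes in the trend fit of the Hep3B pair and 99.3% in that of the Huh7 pair.

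Every member was named. Beyond the members, genes could be named from each other list where they were called alike in both pairs, among the 3 highest by RPKM, or among the 3 with the largest change per pair of genes with at least 50 counts in a library. Not all such marker genes are named, and CCL22 and CXCR6 were named after their values were seen. The members and lists were chosen with earlier results of these data known.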

Additional observations from a re-analysis of the deposited data

Results flagged for a closer look

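The log2 fold-changes of 3 members had opposite signs in the pairs, each with an FDR of at most 0.01 in both as counted. CXCL5, the neutrophil attractant, differed by -4.39 (Hep3B pair minus Huh7 pair, counting SE 0.38), CCL20 by -3.04 (SE 0.29) and CXCL16 by 1.34 (SE 0.14). With 1 library per line, the difference between the pairs was not tested against the spread of replicates. For CXCL16 the sign in the Hep3B pair depended on the scaling, and its change was under 2-fold in both pairs. The CCL20 FDR of 0.0093 in the Huh7 pair was near the threshold, at 0.014 with TMM factors, 0.019 with DESeq2 size factors and 0.014 with the total reads listed by the study.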

How the results depend on the processing

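The pair tests assume Poisson spread. With an assumed biological coefficient of variation of 0.4, members called fell from 5 to 2 in the Hep3B pair (IL8 and CXCL1). They fell from 2 to 1 in the Huh7 pair (CXCL12). Calls over all genes fell too, to 62 higher and 169 lower of 15480 in the Hep3B pair. In the Huh7 pair they fell to 13 higher and 12 lower of 14807. The counts of members called stayed within 1.5 times under the other 8 alternatives for each pair, which changed the library size, the added count, the filter, the test or a trend. Of 158 single-member values under the alternatives, 143 kept direction and call, 6 gained a call, 5 lost one and 4 reversed. The reversals were CXCL2 in the Hep3B pair at 0.16 with TMM factors, 0.24 with DESeq2 size factors and 0.33 with the total reads listed by the study, and CXCL16 in the Hep3B pair at -0.00 with GC and length trends removed; CXCL2 was called under none of these. The cause was not tested. Over both lines, 0 members passed with the parental line as a block, without the block, with DESeq2 or without the filter, and 0 passed when each library was left out in turn. The labels give no replicate numbers, and the block is the parental line, which the fits with a library left out did not have. Depth limits CXCR4, CXCL2 and CXCL3, which had at most 19 counts in any library.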
